A study of Mus musculus with 14 samples.

Results

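The data describe where peaks of MyoD and MyoG were listed in quiescent muscle stem cells (QSCs), sorted from muscle that was not itself injured. They comprise 6 of the 12 peak lists of the series: 3 ChIP-seq libraries with an antibody to MyoD and 3 with an antibody to MyoG. The 933 peaks of the 6 lists were merged wherever peaks shared at least 1 bp, which gave 832 regions. The 6557 regions merged over all 12 lists of the series serve as the frame, and 5779 regions were merged from the 6 lists of activated cells (ASCs). A region is called recurring for a factor when at least 2 of its 3 QSC libraries had a peak there. Regions are named after the gene that the authors' annotation gave to their highest peak.

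All mice were wild-type with a mito-Dendra2 allele, a fluorescent mitochondrial protein switched on by a Pax7-driven, tamoxifen-dependent recombinase, Pax7-Cre(ERT2). Labelled cells are therefore Pax7-lineage cells that recombined, and their descendants. Every animal received tamoxifen at 75 mg/kg daily for 5 days. QSCs were sorted as CD34+, Dendra2+ and DAPI- cells from a tibialis anterior muscle that had been given saline. ASCs were sorted as CD34- cells from the opposite muscle, 2 days after 50 µL of 1.2% BaCl2. QSCs therefore came from mice that carried an injury in the other leg. Ages and the number of animals behind each library are not given in the sources used here.

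MyoD and MyoG (myogenin) are basic helix-loop-helix transcription factors that bind E-boxes, short motifs written CANNTG. In muscle stem cells MyoD protein rises soon after activation and marks commitment to the muscle lineage, whereas MyoG rises later, when cells leave the cycle and differentiate. Quiescent cells are known to hold little of either protein, so these lists are the low-binding baseline of the experiment. Peak lists cannot check cell identity directly. None of the 13 marker genes examined, among them Pax7, Cd34, Vcam1 and Calcr of the stem cell, Pdgfra of fibro-adipogenic cells, Ptprc of leukocytes and Pecam1 of endothelium, had a QSC peak. Since 1.02% of RefSeq protein-coding genes had a QSC MyoD peak and 1.27% a MyoG peak, this count says nothing about the cells.

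Most QSC regions were seen once. Of the 832 regions, 363 had a peak in a single MyoD library and no MyoG library, and 419 had a peak in a single MyoG library and no MyoD library, together 94.0% of the total. MyoD had 42 recurring regions (5.05% of all merged regions), 15 of them in all 3 libraries. MyoG had 10 (1.2%), 2 of them in all 3 libraries. MyoD recurred without any MyoG peak at 34 regions (4.09%), and MyoG recurred without any MyoD peak at 6 (0.721%). Peaks of both factors met at 10 regions (1.2%), and 3 regions recurred for both (0.361%). The number of MyoD regions rests partly on single libraries: without MyoD replicate 1 it was 26 and without MyoD replicate 3 it was 24. The MyoG number was 4 without MyoG replicate 2 and 5 without either of the others. The 34 regions became 20 to 22 without any single MyoD library and 5 without multi-copy gene families (described with their shares of peaks), and the 6 became 2 without any single MyoG library.

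**Figure D1:**
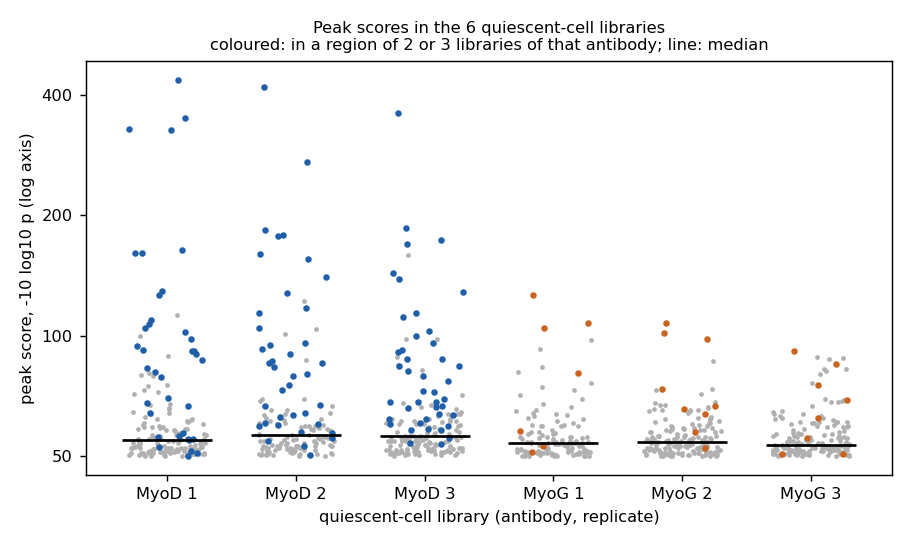
Score of every peak (-10 log10 p, log axis) in the 3 MyoD and 3 MyoG libraries from quiescent cells, with a line at each median. Coloured points lie in regions recurring for that antibody. The MyoD libraries reach 437, 419 and 361, whereas the MyoG libraries end at 127, 108 and 91.4, and the medians all lie close to the lowest listed score of about 50.

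The score of a peak is -10 log10 of the p-value given by MACS, the authors' peak caller, and the lists start at 50.0. The median score per library was 54.7, 56.5 and 56.0 for MyoD and 53.8, 54.2 and 53.4 for MyoG, so the typical peak of either factor lay just above that limit. The groups did not overlap, and the difference of means was 1.93 (exact two-sided permutation p = 0.1, adjusted p = 0.143 over 10 tests). Without peaks at multi-copy gene families the difference was 0.025 and the groups overlapped. Scores of 100 or more were reached by 14, 15 and 11 MyoD peaks and by 3, 2 and 0 MyoG peaks. With 3 libraries in each group, 0.1 is the smallest p that the permutation test can give, and a threshold of 0.05 was out of reach. Whether replicates came from separate animals is not stated, and the p-values measure the spread between these libraries only.

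Recurring MyoD peaks were the strong ones. In MyoD replicates 1, 2 and 3, peaks in recurring regions had median scores of 90.1, 83.4 and 72.5, against 53.1, 54.2 and 54.6 for the other peaks. They were also wider, with medians of 2201, 1936 and 2195 bp against 644, 651 and 645 bp. The rule for recurring, a shared base, itself favours wide peaks, and its part in this contrast was not tested. Recurring MyoG peaks had median scores of 80.8, 66.9 and 65.8 against 53.7, 53.8 and 53.2, but they numbered 7, 9 and 8 per library, compared with 37, 39 and 43 for MyoD. Over all peaks the median width was 694 ± 30.8 bp (SD, n = 3) for MyoD and 627 ± 8.55 bp for MyoG, without overlap between the groups (exact permutation p = 0.1, adjusted p = 0.143). Without multi-copy families that difference fell from 67.3 to 18.7 bp and the groups overlapped (exact permutation p = 0.4).

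MyoD libraries resembled each other more than MyoG libraries did. Between a MyoD library and another MyoD library, 15.2% to 23.02% of peaks overlapped. Between MyoG libraries the range was 2.40% to 4.17%. Peaks of a MyoG library overlapped a MyoD library in 2.40% to 4.17% of cases as well, so a MyoG list shared no more with another MyoG list than with a MyoD list. The share of peaks found in any other library of the same antibody was 24.8% ± 3.21 for MyoD and 5.19% ± 0.879 for MyoG (exact permutation p = 0.1, adjusted p = 0.143). Once peaks at multi-copy gene families were set aside, these shares were 6.31% and 4.30% and the groups overlapped (exact permutation p = 0.4).

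Multi-copy families here are defined by gene symbol alone, as a stand-in for genes with similar relatives in the genome. They include zinc-finger (Zfp), olfactory and vomeronasal receptor, immunoglobulin variable and Speer genes and numbered predicted genes (Gm). Copy number was not measured, and a Gm symbol does not show that a gene has copies. Conversely, a recurring Gpm6a region that overlapped RefSeq pseudogenes was not counted. Nor was a recurring MyoD region of Platr16 that overlapped Gm42346. On the MyoG side, the recurring regions of D5Ertd579e, which lay inside Gm32584, were not counted. Those of 4932411N23Rik were not counted either, in a 1-Mb bin of chromosome X where 5 of 6 RefSeq genes are pseudogenes. The shares below therefore depend on which symbol the annotation chose. Where similar copies exist, reads may align to the wrong member, so a peak there is uncertain as to its member. Genes with these symbols took 49.7%, 56.1% and 48.3% of the MyoD peaks and 34.2%, 30.2% and 29.9% of the MyoG peaks. All MyoD libraries lay above all MyoG libraries, and the difference was 19.9 percentage points (exact permutation p = 0.1, adjusted p = 0.143). It was 10.9 points without the interval on chromosome 4 described next and 9.38 points without 1-Mb bins of at least 3 recurring regions, with the groups still apart. Of the 42 regions recurring for MyoD, 36 were at such families, and of the 10 recurring for MyoG, 4 were, beside 303 of all 832 regions (36.4%). At a stricter score of 80, they made up a mean of 88.2% of MyoD peaks and 20.4% of MyoG peaks. That score was reached by 25 to 26 peaks per MyoD library and by only 4 to 9 per MyoG library.

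**Figure D2:**
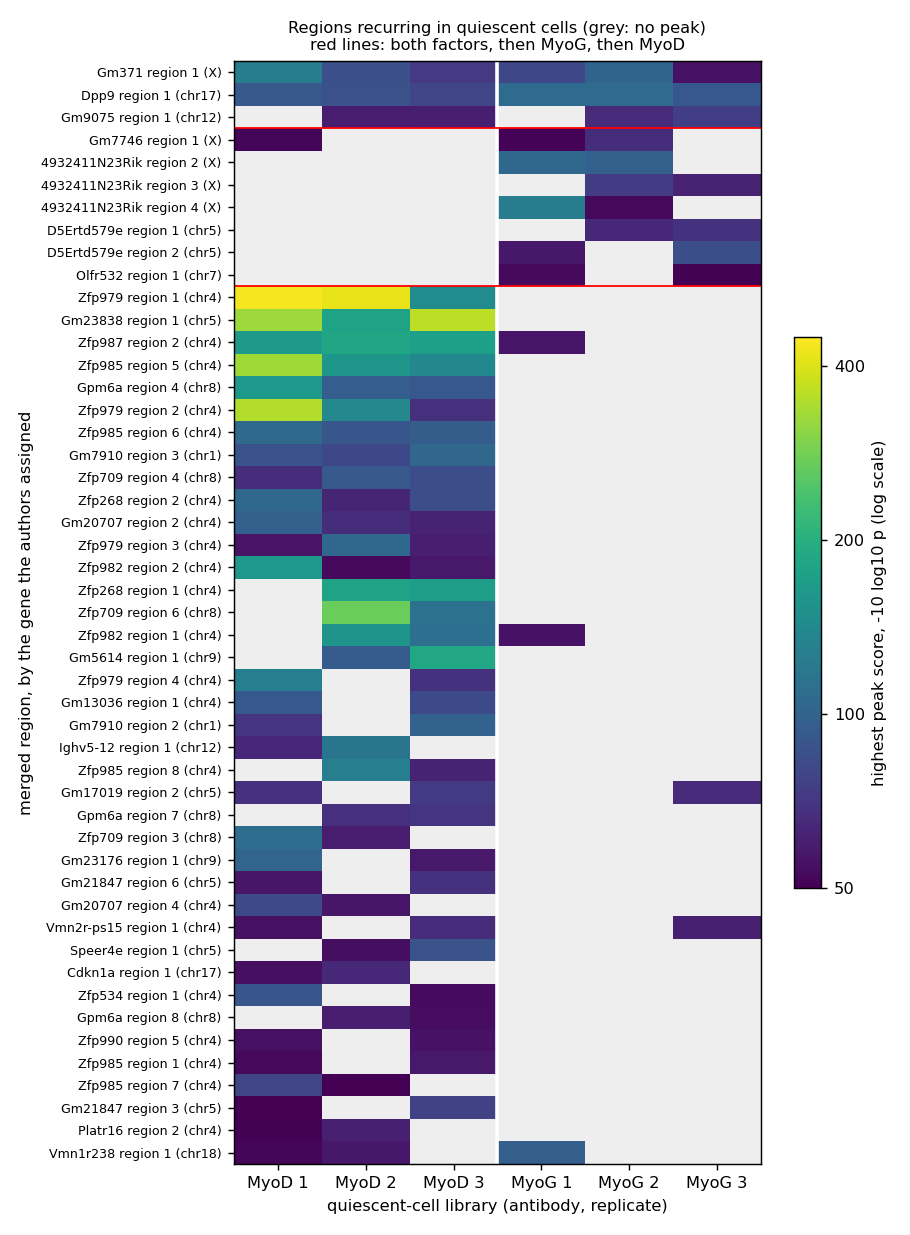
The 49 regions recurring in quiescent cells (rows), with the highest peak score in each of the 6 libraries (columns, colour on a log scale, grey where no peak was listed). Red lines part the 3 regions of both factors, 7 of MyoG and 39 of MyoD, and the MyoG columns are nearly empty beside the MyoD regions.

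The MyoD regions crowded into a cluster of zinc-finger genes on chromosome 4. Between 145 and 148 Mb lay 21 of the 42 regions recurring for MyoD, 9 of them in all 3 libraries, over a span of 2.38 Mb (chr4:145427185-147810296). Recurring MyoG regions there numbered 0, and 3 of the MyoD regions held a single MyoG peak. RefSeq places 92 genes in these 3 bins of 1 Mb, of which 17 are named Zfp or Znf and 56 are pseudogenes. Zinc-finger genes of this kind encode DNA-binding proteins, many of which silence transposable elements.

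MyoD replicates 1, 2 and 3 listed 27, 27 and 34 peaks in the interval, and the MyoG replicates listed 2, 0 and 1. In ASCs the MyoD lists held 4, 0 and 3 peaks there and each MyoG list held 0. The QSC MyoD lists were the only lists with more than 4 peaks there. MACS numbers peaks in order, and 33, 26 and 18 numbers between the first and last MyoD peak of the interval were not in the 3 lists, so peaks that MACS numbered there are missing from what was analysed here. Chromosome 4 as a whole carried 17.5%, 22.3% and 23.6% of MyoD peaks and 7.50%, 3.70% and 7.19% of MyoG peaks (exact permutation p = 0.1, a measure added after its values had been seen). With the interval left out, the difference of 15.0 percentage points turned to -1.87.

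**Figure D3:**
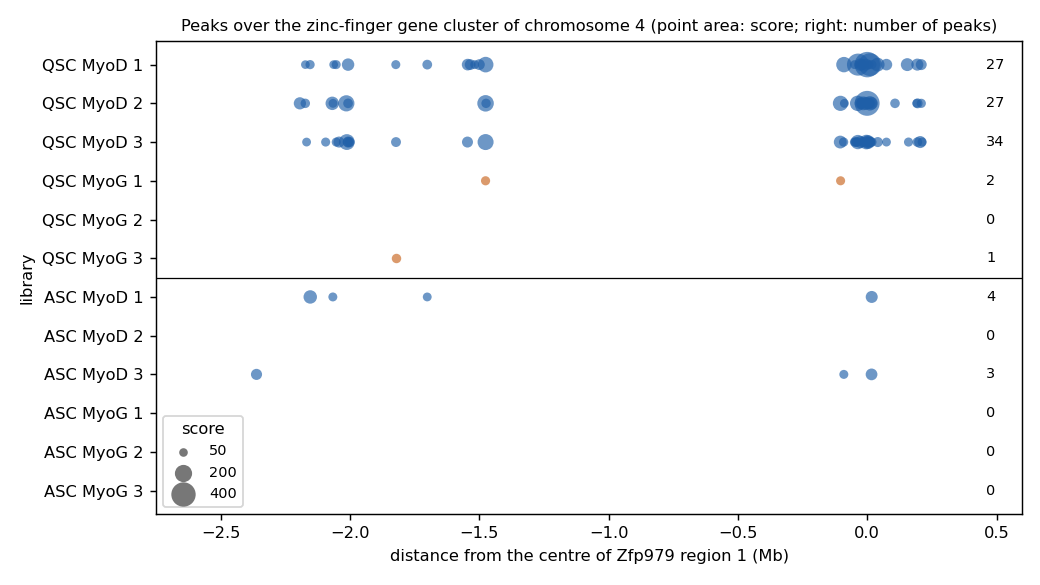
Peaks between 145 and 148 Mb of chromosome 4 in all 12 libraries, by distance in Mb from the centre of the highest-scoring Zfp979 region, with point area in proportion to score and the number of peaks at the right. The 3 QSC MyoD rows hold 27, 27 and 34 peaks in 3 groups, and the other 9 rows hold 0 to 4.

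Within the cluster, the distal region beside Zfp979 (chr4:147594236-147607028) had the highest score of any QSC peak, with 437, 419 and 144 in MyoD replicates 1, 2 and 3. A neighbouring region at the 3' UTR of Zfp979 (chr4:147607638-147614737) scored 351, 141 and 68.1. MyoD replicate 3 was the lowest in both, so height varied widely between libraries even where a peak was always present. Exon 4 of Zfp987 (chr4:146124569-146126174) was steadier, with scores of 164, 184 and 173, and MyoG replicate 1 had a weak peak of 56.8 in the same region.

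The neighbouring gene Zfp985 carried 5 of the recurring regions. Its 5' UTR region (chr4:147561877-147566800) scored 329, 161 and 139 in the MyoD libraries. A region in intron 1 (chr4:147573261-147576243) scored 107, 89.8 and 95.8. Both were present in every MyoD library and in no MyoG library. At the other end of the cluster, a region in intron 1 of Zfp268 (chr4:145591471-145595570) scored 105, 62.7 and 84.2. RefSeq places that region within Gm13212, so the gene names of the authors' annotation and of RefSeq differ here.

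All recurring promoter regions were those of MyoD, but MyoG had few recurring regions of any kind. Peaks are called promoter peaks when the authors placed them within 3 kb of a transcription start. Of the 42 MyoD regions, 9 were at promoters, 20 distal intergenic, 5 intronic, 4 in 5' UTRs, 3 in 3' UTRs and 1 in an exon. The 10 MyoG regions were 7 distal and 3 intronic. Over all 832 regions, 94 were at promoters, 454 distal and 231 intronic. A count of 0 promoters among 10 MyoG regions is too near that share to stand apart. The promoter regions were assigned to Zfp268, Vmn2r-ps15, Gm13036, Zfp982 (a pair of regions), Zfp985, Zfp979 and Gm20707, all in the cluster on chromosome 4, and to Ighv5-12, an immunoglobulin heavy-chain segment on chromosome 12. The Zfp982 region with the higher mean score (chr4:147493990-147499833) scored 156 and 111 in MyoD replicates 2 and 3 and 55.6 in MyoG replicate 1. The other (chr4:147506843-147513169) scored 161, 53.0 and 58.2 in MyoD replicates 1, 2 and 3. The Ighv5-12 region (chr12:113703674-113705203) scored 63.9 and 117 in MyoD replicates 1 and 2.

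The recurring MyoD regions covered the RefSeq start sites of Gm13212, Zfp979 and Zfp984, for which the 250 bases before the start are shown (RefSeq, GRCm38.p6, which is mm10), since these starts lie in recurring promoter regions. A peak lay over the window itself in MyoD replicate 2 alone for Gm13212, in replicate 1 alone for Zfp979, and in replicates 1 and 2 for Zfp984. Capitals mark CANNTG, a palindromic pattern that reads alike on both strands. Gm13212 lies at chr4:145584950-145585199 on the plus strand, Zfp979 at chr4:147642509-147642758 and Zfp984 at chr4:147809789-147810038 on the minus strand.
Gm13212: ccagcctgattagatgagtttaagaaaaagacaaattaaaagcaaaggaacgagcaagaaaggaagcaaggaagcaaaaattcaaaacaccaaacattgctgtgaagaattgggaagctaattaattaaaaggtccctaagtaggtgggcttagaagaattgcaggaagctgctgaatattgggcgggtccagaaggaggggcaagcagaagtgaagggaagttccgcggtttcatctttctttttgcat
Zfp979: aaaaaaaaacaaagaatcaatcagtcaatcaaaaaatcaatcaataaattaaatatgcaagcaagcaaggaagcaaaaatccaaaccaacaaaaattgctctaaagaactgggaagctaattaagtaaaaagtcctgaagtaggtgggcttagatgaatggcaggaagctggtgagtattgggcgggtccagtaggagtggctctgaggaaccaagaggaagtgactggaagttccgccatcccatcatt
Zfp984: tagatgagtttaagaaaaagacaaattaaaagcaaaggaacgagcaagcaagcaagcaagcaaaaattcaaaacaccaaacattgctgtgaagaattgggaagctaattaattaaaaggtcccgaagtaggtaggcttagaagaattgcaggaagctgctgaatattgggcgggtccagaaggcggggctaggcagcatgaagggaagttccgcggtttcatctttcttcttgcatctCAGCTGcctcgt
The window of Zfp984 held 1 CANNTG, of the form CAGCTG, and the other two held 0. Over all 32851 RefSeq promoter windows of this length, 66.2% held CANNTG and 13.001% held CAGCTG. The whole window lay inside the recurring region for Gm13212 and Zfp984, but only 82 of 250 bases did for Zfp979. The windows resembled each other: Gm13212 and Zfp984 were 84.8% identical by edit distance, and Zfp979 was 68.4% identical to each of them and 94.0% identical to the promoter of Zfp600, another zinc-finger gene. Altogether 9 windows were touched by MyoD peaks and 5 of them held CANNTG, while 3 were touched by MyoG peaks and 3 held it.

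Outside chromosome 4, the leading MyoD region lay beside Gm23838 (chr5:5944434-5945706, distal), with scores of 327, 179 and 361 in the MyoD libraries. A wide distal region assigned to Gpm6a, a gene for a neuronal membrane glycoprotein (chr8:55345619-55355152), scored 161, 96.0 and 91.2. It overlapped 2 RefSeq pseudogenes, and another 2 MyoD regions lay in the same 1-Mb bin. A bin at 71 Mb of chromosome 8 held 3 recurring MyoD regions assigned to Zfp709. The region found there in all libraries (chr8:71820002-71823085) scored 66.6, 92.7 and 84.0, and another (chr8:71828968-71832992) scored 272 and 114 in MyoD replicates 2 and 3 and had no peak in replicate 1. A distal region near Gm7910 (chr1:31793748-31794603) scored 86.8, 80.2 and 103. None of these regions had a MyoG peak in QSCs or any peak in ASCs. The ASC MyoG lists did hold 6, 6 and 4 peaks elsewhere in the Gpm6a bin.

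A bin at 15 Mb of chromosome 5 differed in that its recurring regions themselves had ASC peaks. It held 3 recurring MyoD regions, at Gm17019 and Gm21847, all with ASC MyoG peaks in at least 2 libraries. The region of Gm17019 (chr5:15017836-15020366) scored 67.9 and 72.5 in MyoD replicates 1 and 3 and 64.8 in MyoG replicate 3. The ASC MyoG lists held 36, 32 and 33 peaks in this bin, against 8, 2 and 3 in the QSC MyoD lists and 0, 0 and 2 in the QSC MyoG lists. A region near Gm5614 (chr9:35304702-35305734), with scores of 94.6 and 186 in MyoD replicates 2 and 3, likewise had a peak in all 3 ASC MyoG libraries, with a mean score of 369. The second-highest peak of MyoD replicate 3 was this one.

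Recurring MyoG regions were few, and none was at a promoter. A pair lay in intron 2 of D5Ertd579e, a protein-coding gene on chromosome 5. The first (chr5:36630167-36630909) scored 63.7 and 69.2 in MyoG replicates 2 and 3, and the second (chr5:36660842-36661509) scored 57.8 and 84.8 in MyoG replicates 1 and 3. No MyoD library and no ASC library had a peak in either. Both lay inside a further RefSeq gene, Gm32584 (chr5:36630163-36661658, 31496 bp), one near each of its ends. D5Ertd579e was 1 of 4 genes with a peak in all 3 MyoG libraries, and it does not belong to a multi-copy family of the list.

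The other recurring MyoG regions without a MyoD peak were at 4932411N23Rik on chromosome X and Olfr532, an olfactory receptor gene on chromosome 7. At 4932411N23Rik, 3 distal regions within 14.7 kb (chrX:126752624-126767345) recurred, each in 2 MyoG libraries. The first scored 105 and 98.1 in MyoG replicates 1 and 2. The second (chrX:126755905-126757685) scored 73.4 and 62.4 in replicates 2 and 3, and the last (chrX:126763506-126767345) scored 127 and 52.5 in replicates 1 and 2. That 127 was the highest score of any QSC MyoG peak. ASC MyoG libraries had peaks in all 3 regions, and the ASC MyoG lists held 13, 11 and 17 peaks in this 1-Mb bin. MyoG peaks near Gm7746 in the same bin (chrX:126692772-126695001) scored 51.2 and 66.9 in replicates 1 and 2, and MyoD replicate 1 had a peak of 51.3. The Olfr532 region (chr7:140438229-140439170) scored 53.0 and 50.5 in MyoG replicates 1 and 3, at the edge of detection, and had no other peak.

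Both factors recurred at 3 places. The region in intron 10 of Dpp9, which encodes a dipeptidyl peptidase (chr17:56199510-56200593), scored 92.2, 86.3 and 79.4 with MyoD and 108, 108 and 91.4 with MyoG. The MyoD and MyoG ranges overlapped only in that the weakest MyoG peak lay below the strongest MyoD peak. It was also present in all 6 ASC libraries, with mean scores of 94.3 with MyoD and 138 with MyoG. A distal region of 17268 bp near Gm371 (chrX:94900042-94917310) scored 126, 85.5 and 72.2 with MyoD and 80.8, 101 and 55.5 with MyoG. It is a chain of 8 MyoD and 5 MyoG peaks, in which not every pair of libraries shared a base. The region near Gm9075 (chr12:3109394-3110602) scored 59.6 and 60.0 in MyoD replicates 2 and 3 and 65.6 and 75.4 in MyoG replicates 2 and 3. All 3 regions had peaks with both antibodies in ASCs, and with regions of all 4 groups left out the number recurring for both factors in QSCs was 0.

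**Figure D4:**
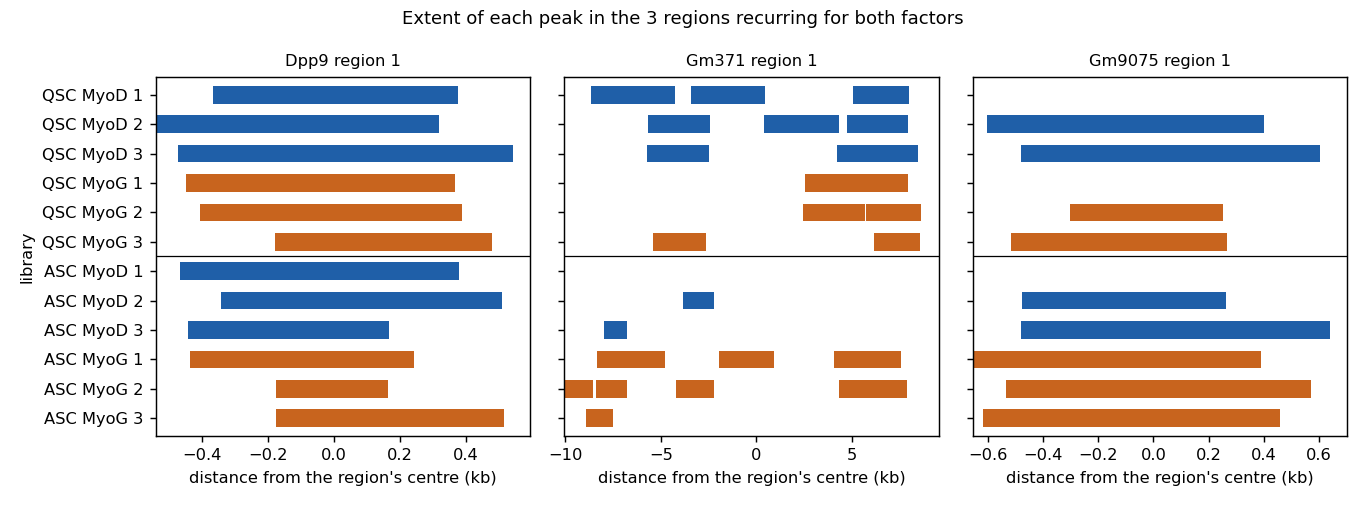
Extent of each peak in the 3 regions recurring for both factors, in kb from the region's centre, for the 6 QSC libraries (above the line) and the 6 ASC libraries (below). At Dpp9 all 12 libraries have a peak over the same place, whereas the peaks at Gm371 are spread over 17268 bp.

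Chl1, a neural cell adhesion gene, had the only region of both factors outside multi-copy families besides Dpp9, and it was chosen for mention after its values were seen. A peak in exon 5 (chr6:103648710-103649752) scored 88.7 in MyoD replicate 3 and 50.8 in MyoG replicate 2, and it had peaks in 2 ASC MyoD and 3 ASC MyoG libraries. On the gene level, 32 of 726 genes had peaks of both factors, which is 9.28% of the 345 MyoD genes and 7.75% of the 413 MyoG genes. Only 10 of the 32 had them in the same region. The others, such as (chosen after seeing their values) Epha3, Esr1 and Col25a1, had MyoD and MyoG peaks at separate places. Several of these are long: the RefSeq span is 420 kb for Col25a1 and 394 kb for Esr1, beside a median of 17.2 kb over 21883 protein-coding genes. Others with separate peaks are short, among them Eno1b (3.045 kb), Gm5611 (1.231 kb) and Mir6393 (0.094 kb). Of the 9 genes with peaks in at least 2 MyoG libraries and no MyoD peak, all of which have a RefSeq span, the longest were Dlg2, Dpp10 and Ccser1 (1973, 1514 and 1203 kb). The shortest was Gm5229 (0.358 kb).

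Peaks in introns were more frequent with MyoG. The intron share was 20.5%, 22.3% and 21.8% in the MyoD libraries and 30.8%, 31.5% and 31.7% in the MyoG libraries. The groups lay apart by more than the spread of either, with a mean difference of -9.81 percentage points (exact permutation p = 0.1, adjusted p = 0.143). The difference was -6.62 points without peaks at multi-copy families and -9.01 points without the interval on chromosome 4, with all MyoD libraries still below all MyoG libraries. The genes with intron peaks had median spans of 187, 154 and 156 kb in the MyoD libraries and 194, 148 and 163 kb in the MyoG libraries.

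Promoter peaks went the other way, at 14.0%, 9.35% and 18.4% with MyoD and 7.50%, 9.26% and 6.59% with MyoG (exact permutation p = 0.1, adjusted p = 0.143). MyoD replicate 2 exceeded the highest MyoG library by less than 0.1 percentage point. Without the interval on chromosome 4 the difference fell from 6.14 to 3.51 points and the groups overlapped (exact permutation p = 0.2). Distal intergenic shares, 54.9% ± 3.25 with MyoD and 55.3% ± 2.62 with MyoG, differed by less than the spread between libraries (exact permutation p = 1.0). For single libraries the counting error is large: the 95% Wilson interval of the intron share ran from 15.1% to 27.1% in MyoD replicate 1 and from 23.3% to 39.6% in MyoG replicate 1.

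**Figure D5:**
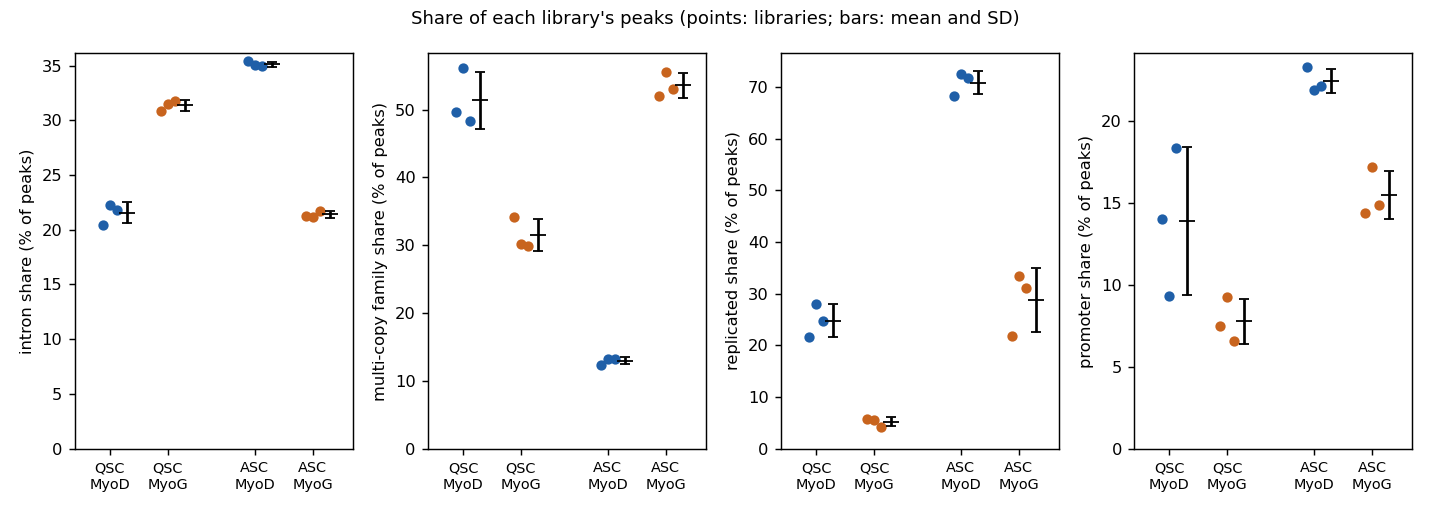
Share of each library's peaks (percent) in introns, at multi-copy gene families, found in another library of the same antibody, and at promoters, for QSC and ASC libraries. Points are libraries and bars give the mean and SD of 3. In QSCs the MyoD points lie below the MyoG points for introns and above them in the other panels, and the order for introns and multi-copy families is the opposite in ASCs.

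At the score limit of the lists, few QSC peaks overlapped an ASC peak of the same factor. In MyoD libraries 4.68%, 6.47% and 7.47% of peaks overlapped an ASC MyoD peak, and in MyoG libraries 5.83%, 7.41% and 4.79% overlapped an ASC MyoG peak, without a difference beyond the spread (exact permutation p = 0.9). The few peaks scoring 80 or more (25 to 26 per MyoD library and 4 to 9 per MyoG library) had means of 10.6% for MyoD and 53.2% for MyoG and no overlap between the groups (exact permutation p = 0.1). QSC MyoD peaks overlapped ASC MyoG peaks in 7.60%, 5.76% and 6.90% of cases, values within the range of their overlap with ASC MyoD peaks or just above it, although the ASC MyoD lists were longer. QSC MyoG peaks overlapped ASC MyoD peaks in 1.67%, 4.94% and 2.99%. Of the regions recurring for MyoD, 11 of 42 had an ASC peak of either antibody, and of those recurring for MyoG, 7 of 10 did, beside 5.65% of all merged regions. The recurring regions were longer, with medians of 3013.5 bp for MyoD and 1494 bp for MyoG against 638 bp over all. The part of length in these shares was not tested.

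A few single-library QSC peaks stood on places with a MyoD peak in all 3 ASC libraries, and these were picked out after their values were seen. They comprised 7 of 419 single-library MyoG regions, at Adora1, Map2k2, Gm11973, Tshz1, Neurl1a, A930001A20Rik and Iffo1. With them were 4 of 363 single-library MyoD regions, at Gm11605, Aida, Esr1 and Tead4. None of these regions had an ASC MyoG peak. With at least 2 ASC MyoD libraries required, the counts were also 7 and 4, beside 16 of all 832 regions. Neither class stood above all regions in this. The strongest QSC peak among the MyoG regions, distal to the adenosine receptor gene Adora1 (chr1:134244839-134245817), scored 86.3 in MyoG replicate 2 alone. Its mean score was 387 over the ASC MyoD libraries. It lay 9.38 kb from the RefSeq start of Adora1 and 44.2 kb from that of Myog, the gene of MyoG itself. Tead4 encodes a transcription factor of the Hippo pathway that is active in muscle. Its intron 8 region (chr6:128236305-128237144) scored 53.8 in MyoD replicate 3 and a mean of 199 in the ASC MyoD libraries.

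Few listed genes of muscle, quiescence or mitochondria had a QSC peak. Of 59 myogenic genes, 2 had a MyoD peak and 1 had a MyoG peak. Of 41 genes linked to quiescence, 0 had a MyoD peak and 1 had a MyoG peak, and of a list of 55 mitochondrial genes (regulators of biogenesis and fusion, respiratory chain, citrate cycle, import and calcium uptake), 0 had a peak with either antibody. The list is not complete, and mitochondrial genes outside it had peaks of both factors. Among examples noted after their values were seen, Nnt and Pdk4 each had a MyoG peak in 1 library. Eci2 had a MyoD peak in 1 library, and Immp2l had peaks in 1 MyoD and 2 MyoG libraries. Beside 1.02% of all protein-coding genes with a QSC MyoD peak and 1.27% with a MyoG peak, the lists are too short for a count of 0 to 2 to stand apart. In ASCs, MyoD peaks were listed at 31 myogenic, 23 quiescence and 17 mitochondrial genes, beside 10.7% of protein-coding genes, and MyoG peaks at 3, 4 and 1, beside 3.36%.

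The recurring muscle-related hit was Cdkn1a, the gene of the cell-cycle inhibitor p21, which MyoD is known to induce as myoblasts leave the cycle. A distal region (chr17:29102801-29103598) scored 54.7 and 63.9 in MyoD replicates 1 and 2 and had no peak in MyoD replicate 3, in any MyoG library or in ASCs. It lay 2.08 kb past the end of the gene and 9.03 kb from the nearest RefSeq start. The remaining hits were distal peaks in single libraries. Mef2c, a MADS-box partner of the myogenic factors, had a MyoG peak of 58.5 in replicate 2, 164 kb from a RefSeq start. Tcf4, an E protein of the class that pairs with MyoD, had a MyoD peak of 59.7 in replicate 1, and Megf10, a receptor of satellite cells, had a MyoG peak of 60.3 in replicate 3.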

How the data were processed

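ChIP-seq peaks were analysed in 12 libraries, of which the 6 QSC libraries (MyoD and MyoG, replicates 1 to 3 of each, from the sample titles) carry the results. The 2 input libraries were not analysed here. Cells were fixed in 1% formaldehyde and chromatin was sheared to about 500 bp. The submitters' processing notes name build mm10, BWA 0.7.5, MACS and deepTools 3.5.0. The deposited lists give, for each library separately, the position of every peak, its MACS score (-10 log10 p), a gene and a gene part. Use of the input, filters and the annotation tool are not given in the sources used here. The lists hold no read counts, so the depth of each library is unknown and enrichment over input was not tested; a comparison of fold enrichment that had been planned was not made. Intervals cover counting error of peaks only.

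Peaks sharing at least 1 bp were merged (pandas 2.3.3, numpy 2.4.6). Group means of log2 peak number, percentages, scores and widths were compared by exact two-sided permutation over the 20 relabelings, with Benjamini-Hochberg adjustment over 10 tests. Region calling was tested on simulated lists, with places planted in every library of a factor. Simulated peaks had equal widths and lay well apart, so chains of wide peaks and partial recurrence were not tested. RefSeq genes and promoters (GRCm38.p6) were matched by symbol or position, with 665 of 726 gene symbols found, and identity was computed with edlib 1.3.9.post1. Members, measures and gene lists were chosen with earlier results of these data known. Named items were all regions recurring for MyoG, regions with both antibodies in at least 4 libraries, the 12 MyoD regions in the most libraries by score rank, 1-Mb bins with at least 3 recurring regions, the 2 highest peaks of each library, listed genes with a QSC peak and recurring promoters. Others are said to have been chosen after their values were seen. Alternatives were a score of 80, overlap of 50% of both peaks, a gap of 500 bp, chromosomes 1 to 19 and X, merging within lists, leaving out regions of all 4 groups or crowded bins, promoters within 1 kb, other numbers of libraries, replicate pairs, leaving out libraries and, chosen after seeing the data, leaving out multi-copy families or the interval on chromosome 4.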

Additional observations from a re-analysis of the deposited data

Results flagged for a closer look

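In 3 measures the difference between MyoD and MyoG in QSCs had the opposite direction in ASCs, with every MyoD library on one side of every MyoG library in both states. The difference of differences was tested by permuting antibody labels within each state (exact, 400 combinations, smallest possible p 0.005, Benjamini-Hochberg over 10 measures), a test chosen after the values were seen. It asks whether the antibodies differed in neither state, so a difference in a single state adds to it. Groups that lie apart in opposite directions in both states always reach the smallest possible p. The p-values of these 3 measures thus restate how the measures were picked and add no support. The multi-copy family share was 51.4% (MyoD) and 31.5% (MyoG) in QSCs but 12.97% and 53.6% in ASCs, a difference of 60.5 percentage points between the states (exact permutation p = 0.005, adjusted p = 0.0167). The intron share was 21.5% and 31.4% in QSCs but 35.1% and 21.4% in ASCs, a difference of -23.5 points (exact permutation p = 0.005, adjusted p = 0.0167). The share of peaks overlapping the other factor was 5.40% and 4.10% in QSCs but 3.31% and 6.61% in ASCs, a difference of 4.60 points (exact permutation p = 0.005, adjusted p = 0.0167). In QSCs the direction of that share turned without MyoG replicate 3 (-0.55 points) and at a score of 80 (-23.5 points). In ASCs the MyoD lists were far longer than the MyoG lists, and the part of list length in the last value was not tested. Groups of 3 libraries are too small for a check of single outlying libraries.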

How the results depend on the processing

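Differences in intron share, promoter share, replicated share, multi-copy family share, median score and median width kept their direction under every alternative run. Of 176 recomputed differences 158 kept their direction, but this count includes settings that could not turn a measure. The replicate block returns the main difference by arithmetic. The rules of 50% overlap and of a 500 bp gap leave gene parts, scores, widths and peak numbers unchanged. With libraries left out in turn, the log2 ratio of peak number ranged from -0.035 to 0.22, the cross-factor share from -0.55 to 1.85 percentage points, the distal share from -1.37 to 1.47 and the share with an ASC peak of the same antibody from -0.43 to 0.96, so these have no settled sign. The log2 ratio of peak number was -0.27 without crowded bins, -0.38 without multi-copy families and -0.16 without the interval on chromosome 4. The distal difference was 3.51, 4.17 and 6.56 points under the same settings in that order. At a score of 80 or more, which 25 to 26 MyoD and 4 to 9 MyoG peaks per library reached, the cross-factor difference was -23.5 points and that in the share with an ASC peak -42.7 points. The latter was -0.31 with 50% overlap, -0.47 without multi-copy families and -0.96 without the interval, and the chromosome 4 difference was -1.87 without the interval.

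Recurring regions of MyoD and MyoG numbered 17 and 3 at a score of 80, 14 and 6 without crowded bins, 6 and 6 without multi-copy families, 15 and 2 in all 3 libraries, and 407 and 435 in at least 1. MyoD regions numbered 21 without the interval on chromosome 4. With libraries left out they ranged from 24 to 42 and from 4 to 10. Regions of both factors numbered 2 at a score of 80, 6 without regions of all 4 groups, 6 without crowded bins, 2 without multi-copy families and 7 to 11 with libraries left out. Those recurring for both numbered 0, 1 and 10 without regions of all 4 groups, without multi-copy families and in at least 1 library, and 2 to 3 with libraries left out. The cause of these changes was not tested beyond the peaks each setting removes.

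The labels do not tell if a replicate number marks a common source of cells. Correlations of the deviations of same-numbered libraries, over 3 numbers and thus no proof either way, ran from -0.987 to 0.867, so the numbers were not used as pairs. Under the replicate block the mean differences are the same by arithmetic (0.12 for log2 peak number, 19.6 points for the replicated share, -9.81 for introns), the smallest exact sign-flip p is 0.25 and no call changed. The planned comparison of fold enrichment was not run.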
